A study of Mus musculus with 4 samples.

Results

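The vomeronasal type 2 receptor genes (Vmn2r) of the mouse were examined in CD8+ T cells for H3K9me3, the trimethylated form of histone H3 at lysine 9 that marks heterochromatin. Members were all protein-coding genes in RefSeq's table for GRCm38.p6, the build also called mm10, whose symbol is Vmn2r followed by digits only. There were 123 of them among 21887 protein-coding genes with a position. Native ChIP-seq, in which chromatin is cut with micrococcal nuclease without cross-linking, had been run on such cells from C57BL/6 mice labelled wild-type. The 2 groups were naive cells (day 0) and cells cultured in vitro for 3 days with antibodies to CD3 and CD28 in the presence of IL-2 (day 3), with 1 H3K9me3 library each. The labels also list 1 input library per day, not analysed here, and do not say how many animals were used or how the cells were purified.

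Each library is represented by the authors' list of islands, which are runs of enriched windows merged into 1 region, each with a count of reads. There were 19989 islands on day 0, summing to 3402787 reads, and 47553 on day 3, summing to 10423178. Counts are not scaled for depth, so coverage by islands is described within each list and no test between days was possible. Of the day 0 islands, 50.4% were less dense in reads than any day 3 island. Islands are listed only above the authors' threshold, so a gene without an island may still carry the mark. Among 10 genes of T cell identity, Cd3e and Cd8a included, islands lay over 1 on day 0 (Cd5) and 0 on day 3. Islands took up 45% of Cd4 on day 0 and none of it on day 3. Of the other lineage genes Csf1r had an island on day 0 only, Ms4a1 on day 3 only, and Itgam on neither day. These island lists hold no expression values, so cell purity was not measured.

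Vmn2r genes encode G protein-coupled receptors of family C, with a large extracellular domain that binds peptides and proteins used in social communication. They are expressed by sensory neurons of the basal layer of the vomeronasal organ, where the G protein Gnao1 and the ion channel Trpc2 carry the signal, and each neuron uses a small choice of the family. The genes lie in clusters that grew by repeated local duplication, and many members and pseudogenes are close copies. H3K9me3 is known from repeats and from silent gene families in clusters, and CD8+ T cells are not a tissue in which these receptors are known to act.

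Close copies limit what short reads can show, so the likeness of the members is given first. A RefSeq promoter window of GRCm38.p6, from 250 bases before to 50 after a gene start, was found for 115 of the 121 members placed on an assembled autosome. Vmn2r5, Vmn2r21, Vmn2r46, Vmn2r47, Vmn2r76 and Vmn2r77 were not matched. Identity was computed from the edit distance to the most similar window of another member. Whole windows were compared, so a shift between 2 windows lowers it and some close copies can rank as distinct. Vmn2r43, at 79%, shared exactly 77.5% of its runs of 150 bases with another window. The median identity over the 116 windows was 91% (quartiles 84.7 and 96%), and 36 windows were at least 95% identical to another. The pairs Vmn2r31 and Vmn2r33, Vmn2r32 and Vmn2r49, Vmn2r34 and Vmn2r45, and Vmn2r62 and Vmn2r126 had windows that were identical over all 300 bases. A run of 150 bases, the read length given in the labels, was shared exactly with the window of another gene in 24 of 116 windows (20.7%), against 8.55% of 20085 windows of autosomal protein-coding genes.

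The following windows show the range of likeness. The first is shared base for base by Vmn2r31 (chr7:7399578-7399877, minus strand) and Vmn2r33 (chr7:7566737-7567036, minus strand), which had no island on either day.
Vmn2r31: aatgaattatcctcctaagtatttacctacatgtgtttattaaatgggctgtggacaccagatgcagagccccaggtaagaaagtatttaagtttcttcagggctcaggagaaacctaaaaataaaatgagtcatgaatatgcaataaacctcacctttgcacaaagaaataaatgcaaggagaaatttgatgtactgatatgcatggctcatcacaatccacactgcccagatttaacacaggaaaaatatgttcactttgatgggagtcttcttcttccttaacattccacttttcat
The next pair shows the most similar windows among members with an island. Vmn2r116 (chr17:23384553-23384852, plus strand), the receptor of the male tear peptide Esp1, had an island in its body on day 3, and Vmn2r112 (chr17:22600898-22601197, plus strand) had none. Capitals mark the 6 bases that differ.
Vmn2r116: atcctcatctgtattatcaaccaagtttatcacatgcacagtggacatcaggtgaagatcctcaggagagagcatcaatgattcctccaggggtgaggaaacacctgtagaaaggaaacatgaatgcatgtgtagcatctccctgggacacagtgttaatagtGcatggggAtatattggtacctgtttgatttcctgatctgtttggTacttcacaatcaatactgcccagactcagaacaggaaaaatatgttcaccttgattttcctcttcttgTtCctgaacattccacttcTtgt
Vmn2r112: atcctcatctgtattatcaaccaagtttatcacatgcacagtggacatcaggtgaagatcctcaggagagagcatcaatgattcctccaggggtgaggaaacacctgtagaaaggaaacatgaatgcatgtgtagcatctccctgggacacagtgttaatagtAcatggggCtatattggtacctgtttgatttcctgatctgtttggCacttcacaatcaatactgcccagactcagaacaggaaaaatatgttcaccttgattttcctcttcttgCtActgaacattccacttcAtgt
Vmn2r109 (chr17:20564707-20565006, minus strand) and Vmn2r110 (chr17:20596210-20596509, minus strand) are neighbours whose windows are 76.7% identical and both lay in islands on day 3. Capitals mark bases left unmatched when the whole windows were aligned end to end. A stretch that both windows hold at shifted positions, such as the start of the Vmn2r109 window, can therefore stand in capitals and lower the identity.
Vmn2r109: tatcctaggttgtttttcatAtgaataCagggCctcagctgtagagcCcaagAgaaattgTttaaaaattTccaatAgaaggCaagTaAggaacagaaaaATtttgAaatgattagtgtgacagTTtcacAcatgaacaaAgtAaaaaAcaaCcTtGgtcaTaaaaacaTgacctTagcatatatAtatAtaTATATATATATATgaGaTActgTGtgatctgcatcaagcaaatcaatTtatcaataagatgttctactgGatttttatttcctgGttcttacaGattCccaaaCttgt
Vmn2r110: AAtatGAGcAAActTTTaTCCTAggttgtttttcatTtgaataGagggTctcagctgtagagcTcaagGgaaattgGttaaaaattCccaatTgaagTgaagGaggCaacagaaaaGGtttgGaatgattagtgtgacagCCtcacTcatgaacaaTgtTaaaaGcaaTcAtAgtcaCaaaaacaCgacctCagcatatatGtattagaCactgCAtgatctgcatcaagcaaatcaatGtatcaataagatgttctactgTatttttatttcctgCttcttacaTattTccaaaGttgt
Vmn2r1 (chr3:64081392-64081691, plus strand) had the most bases covered of all members, and no window of another member was more than 52% identical to its own.
Vmn2r1: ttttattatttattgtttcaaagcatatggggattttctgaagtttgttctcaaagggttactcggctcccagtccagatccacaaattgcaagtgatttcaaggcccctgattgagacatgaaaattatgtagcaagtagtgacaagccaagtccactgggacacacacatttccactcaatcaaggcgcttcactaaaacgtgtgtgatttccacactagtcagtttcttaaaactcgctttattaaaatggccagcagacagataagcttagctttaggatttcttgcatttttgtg

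Members with more distinct promoter windows were covered more often. On day 3 an island lay over 26 of the 51 members whose window was under 90% identical to any other (51%, 95% Wilson interval 37.7 to 64.1) and over 3 of the 64 members at 90% or more (4.69%, interval 1.61 to 12.9). On day 0 the counts were 6 of 51 (11.8%) and 1 of 64 (1.56%). Islands lay over 28.8% of all 20560 autosomal protein-coding genes on day 3 and 24.1% on day 0. In finer classes of likeness on day 3, 14 of 20 members under 80% had an island, 12 of 31 from 80 to 90%, 1 of 28 from 90 to 95%, and 2 of 36 at 95% or more. The covered share of their bodies was 15.5, 6.69, 0.762 and 0.598% in this order. The 3 members at 90% or more with an island on day 3 were Vmn2r57, Vmn2r82 and Vmn2r116. Over the 115 members, Spearman's rho between identity and covered share was -0.541 on day 3 and -0.208 on day 0. On chromosome 7 alone the day 0 difference was reversed, with the 1 covered member at 90% or more. These are descriptions over genes that are neighbours, share islands and come from 1 library per day.

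**Figure D1:**
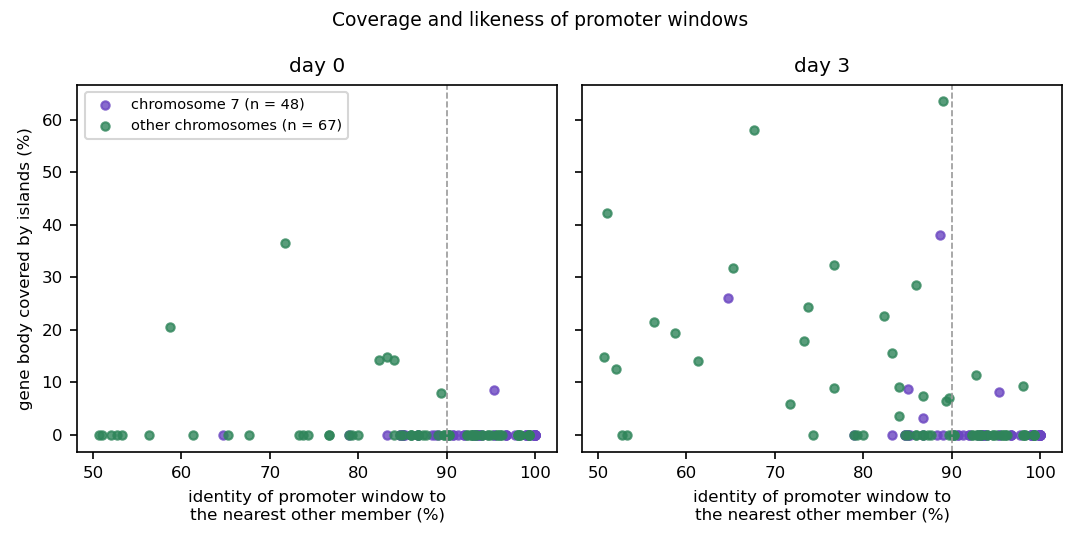
Each point is 1 of 115 Vmn2r genes, with the identity of its promoter window to the nearest other member (%) on the horizontal axis and the share of its body covered by islands (%) on the vertical axis, for day 0 and day 3. Purple points are genes on chromosome 7 (n = 48) and green points those on other chromosomes (n = 67). The dashed line stands at 90%, and to its right 3 of 64 members are above 0 on day 3.

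Whether reads of near-identical copies were dropped, split or placed at 1 copy was left unstated in the sources used here. The part of read placement in the missing islands was not tested. The limit of 90% was chosen after the values were seen. The window is only a small piece of each gene and does not measure the likeness of the whole body. The same split in 2 other chemosensory families, whose windows were compared within each family, gave no island over genes at 90% or more. The count was 0 of 100 Vmn1r genes on each day (Wilson upper limit 3.7%) and 0 of 57 olfactory receptor genes (Olfr) on each day (upper limit 6.31%). Under 90%, 7 of 105 Vmn1r genes and 155 of 877 Olfr genes, whose bodies are much shorter, had an island on day 3. On that day islands covered 156 of 1509 kb of the bodies under 90% in Vmn2r and 18.5 of 179 kb in Vmn1r genes. In Olfr genes it was 197 of 1706 kb (11.6%), so the day 3 shares of the 3 families were close. The day 0 shares were 2.29% in Vmn2r, 2.25% in Vmn1r and 4.7% in Olfr genes, highest in Olfr. Vmn1r genes at 90% or more lay at a median of 592 kb from the nearest day 3 island, and Olfr genes at 26.3 kb.

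Of the 123 members, 2 were not assessed. Vmn2r121 lies on chromosome X, which held 1 island on day 0 and 3 on day 3. The table's position of Vmn2r122 falls before the first island of any autosome, in a stretch without sequence in the assembled chromosomes, and was taken to belong to an unplaced scaffold. Among the other 121, an island covered at least 1 bp of the body of 7 on day 0 (5.79%, 95% Wilson interval 2.83 to 11.5) and of 30 on day 3 (24.8%, interval 18 to 33.2). Among all autosomal protein-coding genes the shares were 24.1 and 28.8%. Bodies of the members had a median length of 24.7 kb (quartiles 16.9 and 33.4 kb, range 8.4 to 143 kb). Of the 3863 protein-coding genes with a body between those quartiles, 19.3% carried one on day 0 and 26.6% on day 3. The Vmn2r count was thus far under the background on day 0 and near it on day 3. Intervals cover counting error only.

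All 7 members with an island on day 0 also had one on day 3, and 23 had one on day 3 only. Across all autosomal protein-coding genes, 16.9% had an island on both days, 11.9% on day 3 only and 7.18% on day 0 only. At least 10% of the body was covered in 5 members on day 0 (4.13%) and 19 on day 3 (15.7%), against 12.9 and 19% of all genes. Covered bases summed to 38.7 kb of 3186 kb of member bodies on day 0 (1.22%) and 174 kb on day 3 (5.46%). The same share over all protein-coding bodies was 5.14 and 9.52%. Over the 3863 protein-coding genes with a body between the quartiles of the members it was 4.13 and 6.71%. When the day 3 list was cut to its 19989 islands of highest read count, 16 members kept an island. With the day 0 list reduced to islands at least as dense as the least dense day 3 island, 3 members kept one on day 0, which were Vmn2r90, Vmn2r93 and Vmn2r118. Shares of all protein-coding genes under these cut lists are not given here. Whether the members lost islands more or less often than other genes cannot be read from these counts.

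The members fell into 29 chains when neighbours up to 200 kb apart were joined. Of these, 21 held at least 2 genes and 113 members in all, and 8 were single genes. The widest gaps inside a chain were 172 kb (Vmn2r25 to Vmn2r26) and 187 kb (Vmn2r74 to Vmn2r75), and the narrowest between chains were 217 kb (Vmn2r103 to Vmn2r104) and 235 kb (Vmn2r36 to Vmn2r41). Their spans summed to 9156 kb, of which islands took up 73.9 kb on day 0 (0.807%) and 362 kb on day 3 (3.95%). The sequence within 1 Mb on either side was covered over 3.31 and 6.69%, and the autosomes over 4.18 and 8.26%. On day 0, 22 chains were covered less than their flanks and 5 more, and on day 3 it was 21 less and 8 more. Only 10 chains on day 0 and 17 on day 3 had any island. The single genes span 8.4 to 48.9 kb, and spans so short can miss islands where coverage is sparse. Other spans of like size were not counted, so these counts alone do not show that the chains are depleted. Inside the chains, member bodies were covered over 1.22 and 5.46% and sequence outside protein-coding genes over 0.507 and 3.14%. Among 128 Vmn2r pseudogenes, with a median length of 3.22 kb, 3 were reached by an island on day 0 (2.34%) and 19 on day 3 (14.8%). No share for other genes or pseudogenes of like length is given, so these counts cannot be called low or high.

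**Figure D2:**
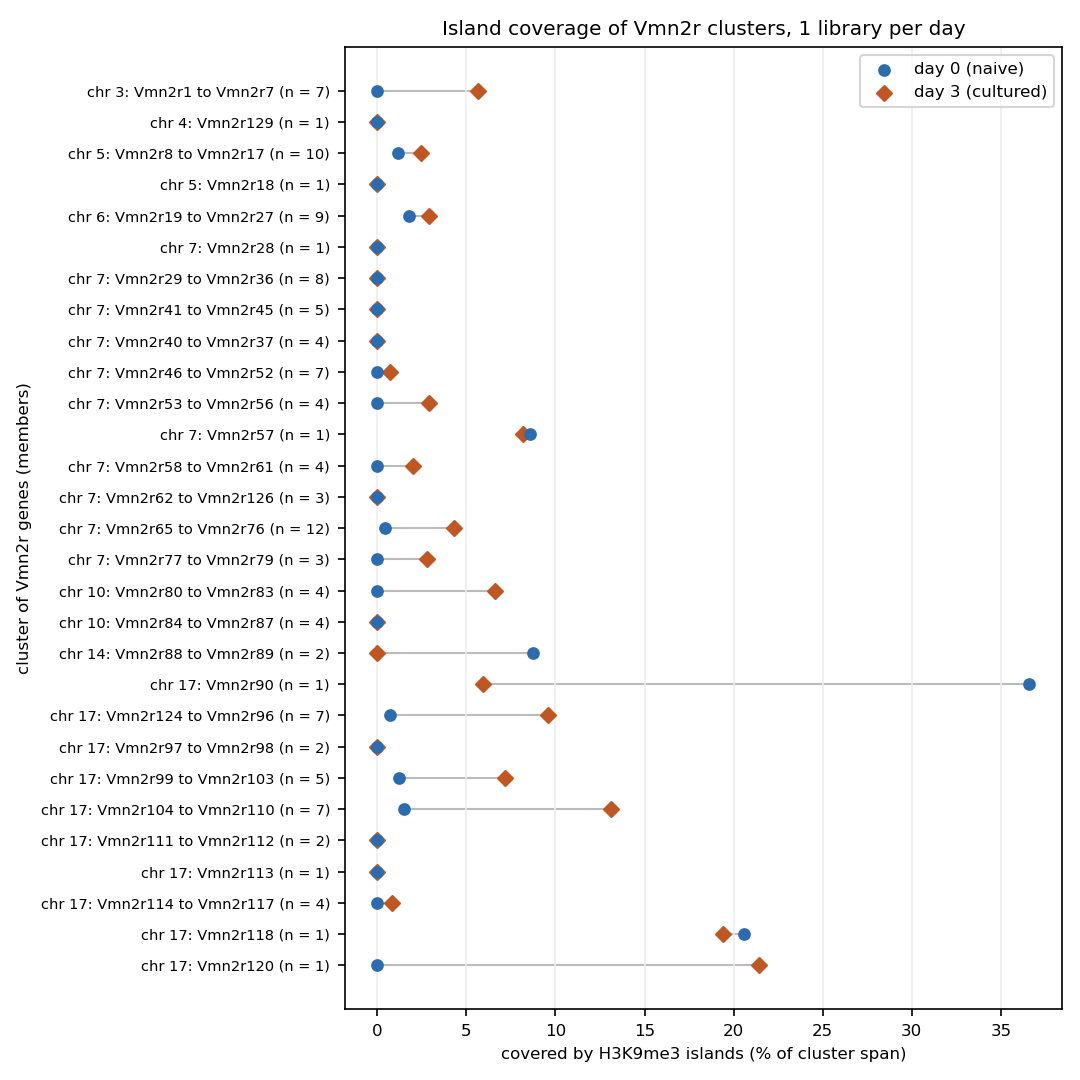
Share of each cluster's span covered by islands (%, horizontal axis) on day 0 (circles) and day 3 (diamonds), for 29 chains of Vmn2r genes in genome order, with 1 library per day. Covered length was greater on day 3 in 14 chains and on day 0 in 4, and 11 had no island on either day.

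Chromosome 17 held the most covered clusters. Islands covered 3 of its 31 members on day 0 (9.68%) and 15 on day 3 (48.4%, 95% Wilson interval 32 to 65.2), where 15 and 19.7% of all protein-coding genes of that chromosome had one. The members are longer, with a median body of 27.2 kb against 13.7 kb, and longer bodies meet islands more readily. Covered shares were 2.54% of member bodies on day 0 and 9.81% on day 3, against 4.16 and 6.97% of all protein-coding bodies there. The median identity of the members' windows to the nearest other member was 86%. The cluster from Vmn2r104 to Vmn2r110 (chr17:20029425-20596259), which also holds Vmn1r224, Vmn1r225 and the formyl peptide receptor genes Fpr-rs6 and Fpr-rs7, had 1 island over 8.4 kb on day 0 and 19 islands over 74.5 kb on day 3 (13.1%). On day 3 an island lay over Vmn2r105, Vmn2r106, Vmn2r108, Vmn2r109 and Vmn2r110, and on day 0 over none of the 7 members. In the cluster from Vmn2r124 to Vmn2r96 (chr17:18049484-18598157) islands took up 4 kb on day 0 and 52.5 kb on day 3 (9.57%), with islands over Vmn2r124, Vmn2r94, Vmn2r93 and Vmn2r95. The cluster from Vmn2r99 to Vmn2r103 was covered over 5.4 and 32.4 kb (7.19% on day 3), with day 3 islands over Vmn2r100 and Vmn2r101. The sequence within 1 Mb of these clusters was covered to a similar share on day 3. It was 12.2% around Vmn2r104 to Vmn2r110, 9.09% around Vmn2r124 to Vmn2r96 and 5.92% around Vmn2r99 to Vmn2r103. No island lay in the clusters of Vmn2r97 and Vmn2r98 or of Vmn2r111 and Vmn2r112, or over Vmn2r113. Vmn2r114, Vmn2r115 and Vmn2r117 had none either, and their neighbour Vmn2r116 was covered over 1.6 kb on day 3 by an island of 96 reads (exact 95% Poisson interval 78 to 117).

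Chromosome 7 held the most members, and few were covered. Islands reached 1 of 52 on day 0 (1.92%) and 6 on day 3 (11.5%, 95% Wilson interval 5.4 to 23), against 13.8 and 15.7% of all protein-coding genes there. The median identity of the 48 members with a window was 93.7%. A stretch of 2974 kb without any day 3 island (chr7:7177601-10151200) held 23 members, from Vmn2r29 to Vmn2r51 in position. It was the 12th longest of 47526 autosomal stretches between islands, whose median length was 18.4 kb. On day 0 the stretch ran over 3209 kb and held 24 members, and it was the 6th longest of 19965. The 4 clusters in the day 0 stretch include 3 of the 4 pairs with identical promoter windows. The sequence within 1 Mb of these clusters, chains left out, was also little covered. The shares ran from 0 to 0.748% on day 0 and from 0.359 to 2.87% on day 3. For the whole of chromosome 7 they were 3.29 and 5.34%. Further along, the cluster from Vmn2r65 to Vmn2r76 (chr7:84940169-86246201) had 1 island over 5.4 kb on day 0 and 18 islands over 56 kb on day 3 (4.29%). The members reached by them were Vmn2r65, Vmn2r66 and Vmn2r76, and 35.8 kb of the covered length lay between genes. The remaining members of chromosome 7 with an island on day 3 were Vmn2r57, Vmn2r60 and Vmn2r61. On chromosome 7 alone, an island lay over 1 of 21 members at 95% identity or more on day 3 and over 4 of 27 below it. On the other chromosomes the counts were 1 of 15 and 23 of 52.

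**Figure D3:**
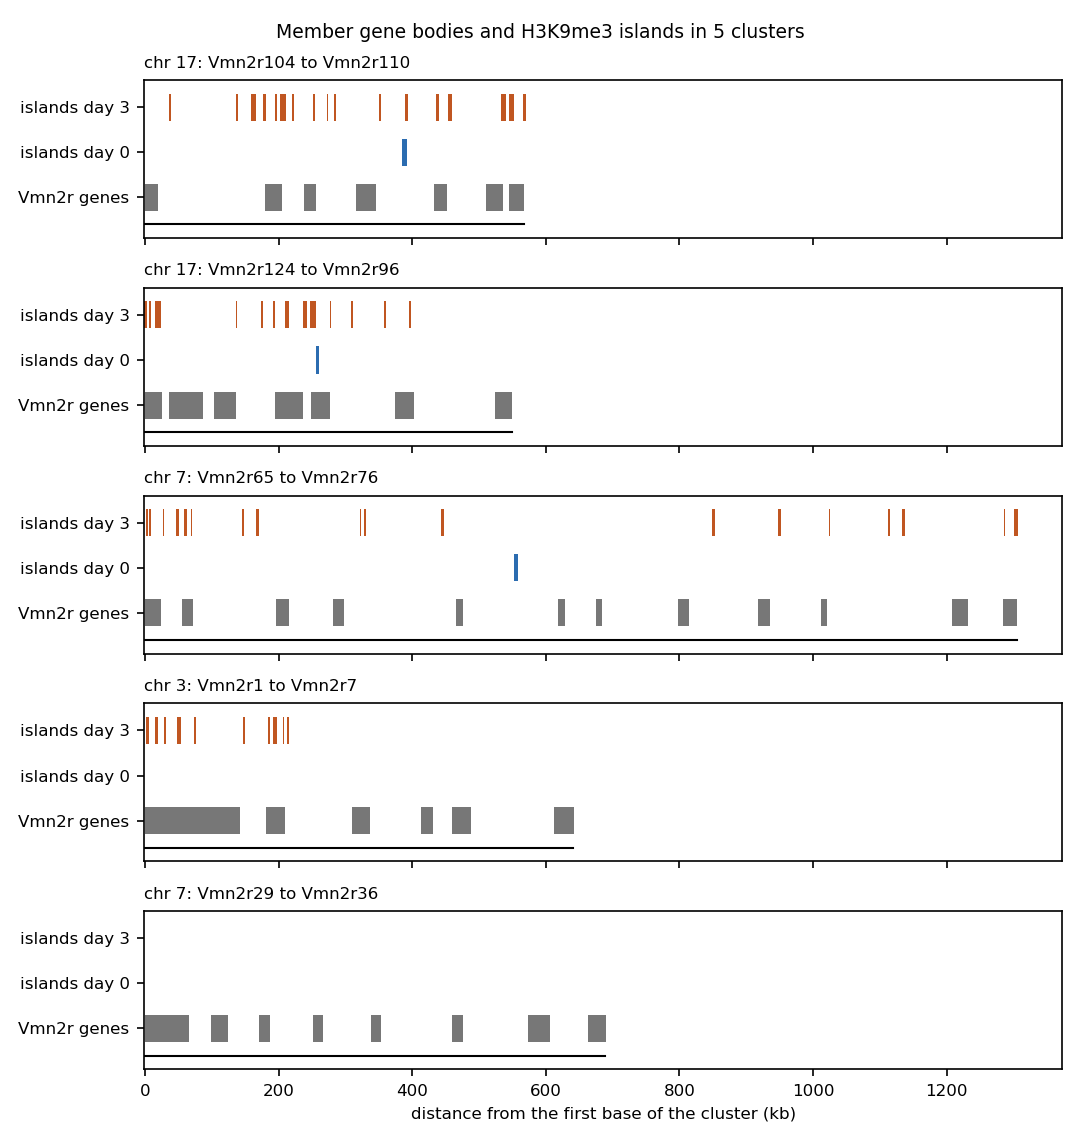
Gene bodies of Vmn2r members (grey) and islands of day 0 (blue) and day 3 (orange) in 5 clusters, by distance from the first base of the cluster in kb. The black line is the cluster span, and Vmn2r29 to Vmn2r36 on chromosome 7 has no island on either day.

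The family C receptors Vmn2r1 to Vmn2r7 on chromosome 3 are a divergent branch that basal neurons express broadly, beside their other receptor. Their cluster (chr3:64078172-64719602) had no island on day 0 and 10 islands over 36.4 kb on day 3 (5.67%). These fell on 1 side of the cluster: Vmn2r1, Vmn2r2 and Vmn2r3 were covered, and Vmn2r4 to Vmn2r7 were not. Vmn2r1 was covered over 18 kb (12.6% of a body of 143 kb), Vmn2r2 over 7.8 kb (14.1%) and Vmn2r3 over 12 kb (42.2%). The bodies of Vmn2r1 and Vmn2r2 overlap, and 2 of the islands count for both. The windows of Vmn2r1, Vmn2r2 and Vmn2r3 were 52, 61.3 and 51% identical to their nearest. The windows of Vmn2r4, Vmn2r6 and Vmn2r7 were 95, 99.3 and 99.3% identical to theirs.

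The 9 members on chromosome 6, among them Vmn2r26, a receptor for peptides that bind MHC molecules, lay in 1 cluster (chr6:123308333-124231784). Islands took up 16.6 kb of it on day 0 and 26.8 kb on day 3. Islands lay over the same 3 members on both days, Vmn2r19, Vmn2r23 and Vmn2r24. Within these genes the islands of the 2 days lay in different places, overlapping only over 0.2 kb in Vmn2r23. Vmn2r26 had none, and its nearest island was 60.6 kb away on day 0 and 7.97 kb on day 3. The 4 members from Vmn2r80 to Vmn2r83 on chromosome 10 had no island on day 0, inside a stretch of 2611 kb without one. On day 3 they were covered over 22.6 kb (6.58%), with islands over Vmn2r82 and Vmn2r83. The other chromosome 10 cluster, from Vmn2r84 to Vmn2r87, had none on either day although its flanks were covered over 8.62 and 19.9%. On chromosome 5 the 10 members from Vmn2r8 to Vmn2r17 shared 2 islands on day 0, both between genes, and 4 on day 3, of which 1 reached Vmn2r16. Vmn2r18, Vmn2r88, Vmn2r89 and Vmn2r129 had no island on either day. Between Vmn2r88 and Vmn2r89 on chromosome 14, 4.4 kb of the gene Gm7247 was covered on day 0 only.

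The members with the most covered bases over both days were Vmn2r1, Vmn2r124, Vmn2r83, Vmn2r118, Vmn2r90, Vmn2r3, Vmn2r93, Vmn2r23, Vmn2r19 and Vmn2r105. Vmn2r124 (chr17:18049484-18074220) had no island on day 0 and was covered over 15.7 kb on day 3. At 63.5% this was the highest covered share of any member, in 3 islands with 288, 154 and 453 reads. Vmn2r83 (chr10:79468958-79492154) had none on day 0 and was covered over 13.4 kb or 58% on day 3. Its longer island (9800 bp, 613 reads, exact 95% Poisson interval 565 to 664) was the longest over any member, at 62.6 reads per kb. These were the 2 members with at least 50% of the body covered, both on day 3. Vmn2r105 was covered over 8.44 kb (31.7%) on day 3 only. The other members covered on day 3 only ranged from 1.22 kb in Vmn2r16 to 7.8 kb in Vmn2r2 and in Vmn2r120, a single gene on chromosome 17 with 3 islands of 2.6 kb each.

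The longest overlaps with member bodies on day 0 were 5.6 kb in Vmn2r90 (201 reads, exact 95% Poisson interval 174 to 231) and 5.6 kb in Vmn2r23 (161 reads, 137 to 188). They were followed by 5.46 kb in Vmn2r90 (192 reads, 166 to 221), 5.4 kb in Vmn2r118 (162 reads, 138 to 189), and 4.2 kb in both Vmn2r19 (135 reads, 113 to 160) and Vmn2r57 (132 reads, 110 to 157). On day 3, after the 9.8 kb in Vmn2r83, they were 9.2 kb in Vmn2r124 (453 reads, 412 to 497) and 6.4 kb in Vmn2r3 (299 reads, 266 to 335). Next came 6.32 kb in Vmn2r93 (431 reads, 391 to 474) and 6.2 kb in Vmn2r94 (352 reads, 316 to 391). Read counts are not scaled for depth, so they are not compared between days.

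Several of the overlaps on day 3 only took up a sizeable share of the gene. Day 3 islands covered 38% of Vmn2r66, 35.2% of Vmn2r76, 32.4% of Vmn2r110, 28.6% of Vmn2r100 and 26% of Vmn2r65. The share was 24.4% in Vmn2r108, 21.4% in Vmn2r120, 17.9% in Vmn2r106, 14.9% in Vmn2r94 and 11.4% in Vmn2r82. It was under 10% in Vmn2r116, Vmn2r109, Vmn2r61, Vmn2r101, Vmn2r95, Vmn2r16 and Vmn2r60, with 3.28% in Vmn2r60 the lowest. Some overlaps were slight: a day 3 island reached 0.031 kb into Vmn2r94 and another 0.041 kb into Vmn2r93, each beside a longer one. Just outside the limit of 1 bp, Vmn2r92 lay 0.023 kb and Vmn2r54 0.033 kb from a day 3 island. At the other end, Vmn2r45 lay 1294 kb from the nearest day 3 island and 1417 kb from the nearest on day 0.

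Vmn2r90 (chr17:17703941-17734167), a single gene, had more coverage on day 0 than on day 3. On day 0, 2 islands covered 11.1 kb of it (36.6%), with 34.3 and 35.9 reads per kb, and on day 3 1 island of 63.3 reads per kb covered 1.8 kb (5.95%). The islands of the 2 days lay in different places. Its promoter window was the only one of a member that a day 0 island touched. In Vmn2r118 (chr17:55592329-55624735) the covered length was 6.67 kb on day 0 and 6.27 kb on day 3. The island at its 3′ end was present on both days (chr17:55590801-55593600 on day 0, with 44.6 reads per kb, and chr17:55589601-55594400 on day 3, with 55.2). The remaining islands in this gene did not overlap between days. Of the 7 members with islands on both days, Vmn2r90, Vmn2r118, Vmn2r23, Vmn2r24 and Vmn2r57 had more bases covered on day 0, and Vmn2r93 and Vmn2r19 on day 3. The covered length of Vmn2r93 was 4 kb on day 0 and 6.36 kb on day 3, that of Vmn2r19 4.2 and 4.4 kb, and that of Vmn2r23 5.6 and 3.6 kb. The differences in Vmn2r118, Vmn2r24, Vmn2r57 and Vmn2r19 were 0.6 kb or less, within 3 of the 200 bp steps on which island borders fall. Similar lengths did not mean the same islands. In Vmn2r57 the islands of the 2 days overlapped over 2.8 kb and in Vmn2r23 over 0.2 kb. Those in Vmn2r19, Vmn2r24 and Vmn2r93 did not overlap between days.

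**Figure D4:**
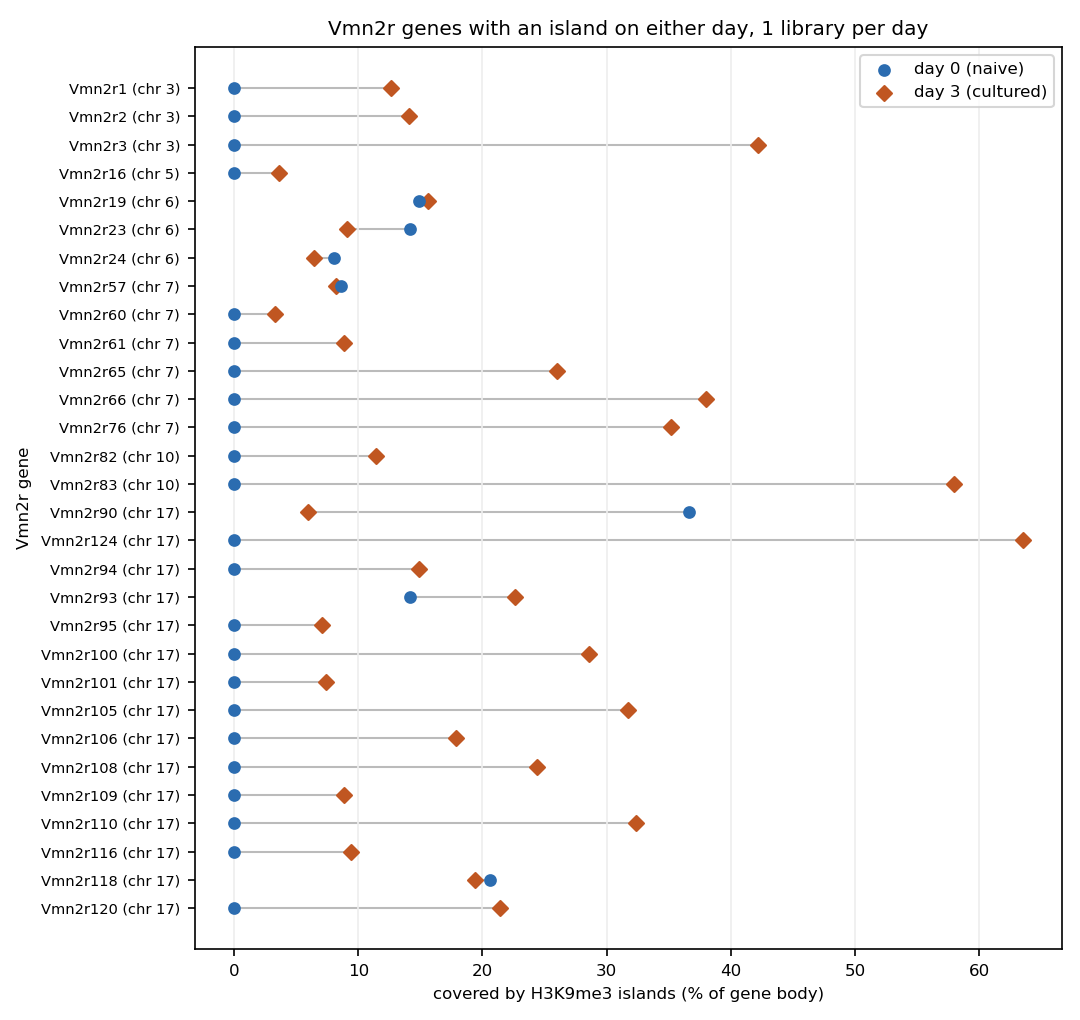
Share of the gene body covered by islands (%, horizontal axis) on day 0 (circles) and day 3 (diamonds) for the 30 Vmn2r genes with an island on either day, in genome order, with 1 library per day. Vmn2r124 and Vmn2r83 stand highest on day 3 (63.5 and 58%) and Vmn2r90 on day 0 (36.6%).

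Islands over members had a median density near that of the whole list on each day. On day 3, 54 islands lay over members, with a median of 54.9 reads per kb against 52.9 in the whole list. On day 0, 9 islands did, with a median of 33.3 against 34.1, and 5 of the 9 were less dense than any day 3 island. Their longest were 9800 bp on day 3 and 5600 bp on day 0. Of the 54 day 3 islands, 4 overlapped a day 0 island. In the clusters as a whole it was 7 of 103 (6.8%), and 14.9% over all day 3 islands. Divided into 3 equal parts from gene start to gene end, the bodies with a strand in the promoter table were covered on day 3 over 64.1, 44.2 and 66.1 kb in 29 members. A promoter window was touched by an island in 1 of 116 windows on day 0 (0.862%) and 9 on day 3 (7.76%), against 1.9 and 2.98% of all windows of autosomal protein-coding genes. For Olfr windows the shares were 5.22 and 16.5%, and for Vmn1r windows 1.95 and 3.41%. The 9 belonged to Vmn2r1, Vmn2r16, Vmn2r83, Vmn2r93, Vmn2r100, Vmn2r105, Vmn2r109, Vmn2r110 and Vmn2r124.

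The 2 nearest kinds of gene family were set beside the members. Islands lay over 5 of 228 Vmn1r genes, which encode the other large class of vomeronasal receptors, on day 0 (2.19%) and over 8 on day 3 (3.51%). For Olfr genes the counts were 60 of 1099 (5.46%) and 175 (15.9%). Their bodies are short, with medians of 0.924 and 0.951 kb, so covered share is the fairer measure. On day 0 it was 1.22% in Vmn2r, 1.13% in Vmn1r and 4.11% in Olfr bodies. On day 3 it was 5.46% in Vmn2r and 5.25% in Vmn1r bodies, and 222 of 2104 kb of Olfr bodies were covered. Median identity to the nearest window of the family was 91% in Vmn2r, 89.3% in Vmn1r and 57% in Olfr genes. The members lay at a median of 158 kb from the nearest island on day 0 and 35.5 kb on day 3. For Vmn1r genes the distances were 147 and 80.8 kb, for Olfr genes 49.9 and 7.82 kb, and for all protein-coding genes 35.5 and 26.2 kb. Neighbours share islands, so no test of these differences was made.

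**Figure D5:**
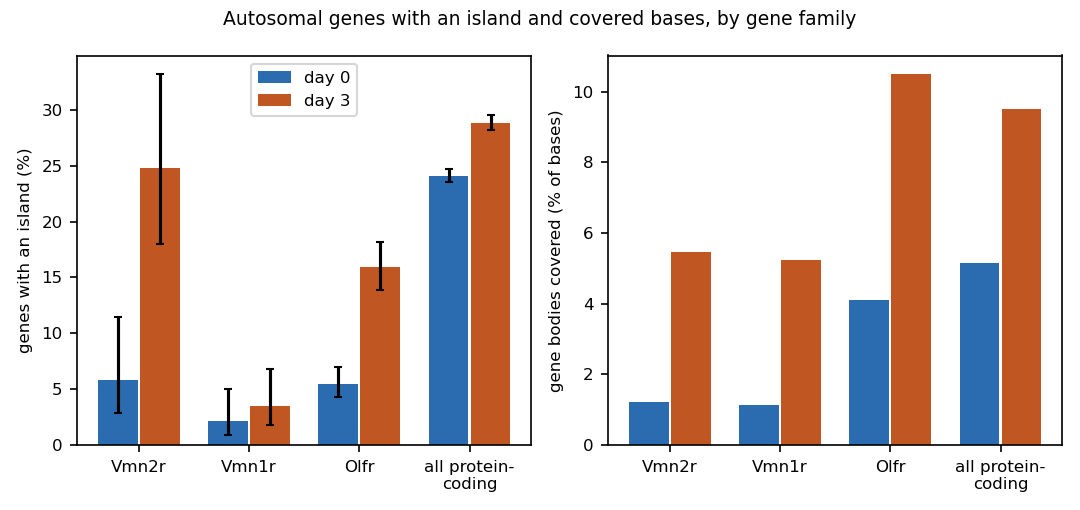
Left, genes with an island (%) with 95% Wilson intervals as error bars, and right, share of gene body bases covered (%), for 121 Vmn2r, 228 Vmn1r, 1099 Olfr and 20560 protein-coding genes on day 0 and day 3. Vmn2r and Vmn1r bodies have nearly the same covered share on each day (1.22 and 1.13%, then 5.46 and 5.25%), below that of Olfr genes.

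Genes that work with the type 2 receptors, or belong to the same receptor family, were looked at in 4 lists, beside a background of 24.1% of all protein-coding genes with an island on day 0 and 28.8% on day 3. The genes of that background have a median body of 17.6 kb, and no background of like length was set beside the lists. Islands lay over 4 of 8 signalling genes on day 0 and 2 on day 3. The 4 were the longest of the list, from 36.6 kb (Calr4) to 349.7 kb (Ano2), and the rest were 21.3 kb (Gnai2) or shorter. Gnao1, the G protein alpha subunit of the basal neurons, was covered over 5.2 kb on day 0 only, and the chloride channel gene Ano1 over 5.8 kb on day 0 only. Ano2, its relative, was covered over 14.6 and 15.8 kb, and Calr4, which encodes a calreticulin of the endoplasmic reticulum, over 1.38 and 8.2 kb. Trpc2 had none. None of the 9 H2-M genes, which encode MHC-like partners of type 2 receptors and have a median body of only 3.33 kb, was covered on either day. Among 15 exocrine gland peptide genes (median body 4.71 kb), some of which encode known ligands, 1 was covered on day 0 and 4 on day 3. Esp1 was covered over 0.481 kb on day 0 only, and Esp4 (89.6% of its body), Esp24 (74.4%), Esp36 (69.6%) and Esp23 (7.08%) were covered on day 3 only. Of 15 other family C receptors, which are long genes with a median body of 71.6 kb, islands lay over 7 on day 0 and 6 on day 3. The glutamate receptor gene Grm8 was covered over 76.8 and 112 kb, and Gprc6a, an amino acid receptor, over 4.2 kb on day 0 only.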

How the data were processed

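H3K9me3 ChIP libraries of CD8+ T cells, 1 per day, were analysed from the island lists deposited by the authors. The submitters' processing notes name Bowtie2, SICER version 1.1 and mm10. The threshold, the gap size, any use of input and the treatment of multiply mapping or duplicate reads were left unstated in the sources used here. The deposited count per island is whole, unnamed and unscaled, and was read as ChIP reads. The labels give only a rough sequencing depth, the same for both days. Island borders fell on steps of 200 bp and were converted to 1-based coordinates of mm10.

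Coverage was computed in Python 3.11.15 (numpy 2.4.6, pandas 2.3.3) with a minimum overlap of 1 bp and tested on simulated intervals. Window identity came from edlib 1.3.9.post1. Planned protein identities were not computed, since no protein sequences were used here. Members and lists were chosen with earlier results of these data known. Every member with an island was named, with covered bases for the 10 with the most. Vmn2r1, Vmn2r26 and Vmn2r116 were named as known examples. Samples were grouped by day as labelled. Alternatives changed the islands, overlap, gene types and cluster limits.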

Additional observations from a re-analysis of the deposited data

How the results depend on the processing

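No paired analysis was possible because each day has 1 library and no test was made. Of 52 alternative values, 29 stayed within the main value's interval (for counts of genes, within 1.5 times), 22 moved and 1 reversed. Values that changed sign inside the interval count as having stayed. The day 0 excess of Vmn2r over Olfr genes with an island was 0.326 percentage points (interval -2.99 to 6.13). It was -0.872 points with a minimum of 10% of the body and -0.25 points under either density limit given next. On day 0, islands of at least the median density of their list, or at least as dense as the least dense day 3 island, both left 3 of 7 members with an island, 0.513% of member bodies and 0.22% of clusters covered. On day 3, the list reduced to as many islands as day 0 left 16 members, 2.88% of bodies and 1.76% of clusters, and the median density left 2.79 and 1.72%. No background share of all genes is given for these reduced lists. A minimum of 10% of the body left 19 members on day 3. Counting all gene types gave 49 of 250 (19.6%), a lower share than the 30 of 121 members (24.8%). Without chromosome 7, an alternative chosen after seeing the data, clusters were covered over 1.32% on day 0 and 5.72% on day 3, and member bodies over 7.56% on day 3. Clusters extended by 200 kb were covered over 1.9 and 6.13%. The excess of Vmn2r over Vmn1r genes with an island on day 3, 21.3 percentage points, was 12.2 with the 10% minimum and 11 with the reduced list. The excess of members under 90% identity over the others on day 3, 46.3 points, was 25.6 on chromosome 7 alone and 25.9 with the reduced list, both chosen after seeing the data. On day 0 the shares were 11.8 and 1.56%, and the difference turned to -2.94 points on chromosome 7 alone, where 1 member had an island. The cause of these shifts was not tested beyond the smaller number of islands or members that each alternative keeps by construction. With 1 library per day, differences between days have no replicate check.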
